A study of Mus musculus with 6 samples.

Results

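The genes described here are 30 genes of sterol and lipid synthesis that are known targets or regulators of the sterol regulatory element-binding proteins (SREBPs), among the 48440 genes of a deposited count table of mouse induced pluripotent stem cells (iPSCs). They were taken by name, a choice made with earlier results of these data known, and each matched 1 row of the table. All 30 passed the filter on low counts, so none was lost to it. Polyadenylated RNA had been sequenced from 6 clonal lines of the male parental line iPSC34.3. The 3 Tet1 knockout clones (clones 14, 30 and 33, here knockout replicates 1, 2 and 3) carry Cas9-made mutations in both Tet1 alleles (mut/mut) on a wt/wt;GFP/wt background, and the 3 non-targeted clones (clones 49, 51 and 52, here non-targeted replicates 1, 2 and 3) are labelled wt/wt;GFP/wt alone. The strain label of all 6 names the allele Tet1tm1Kohx with B6, and with B6;CBA the transgene Tg(Pou5f1-EGFP)2Mnn/J, an EGFP reporter of the pluripotency gene Pou5f1. All 6 had 14 passages before editing and 4 after the colonies were picked, and they share a sequencing batch. The same protocol is given for both groups: Cas9 ribonucleoprotein with a guide RNA against Tet1 and a single-stranded donor oligonucleotide, then 12 h of an enhancer of homology-directed repair, with growth in KSR medium and expansion on embryonic fibroblast feeders that were removed before RNA extraction. The labels do not say how the non-targeted clones came to be unedited. Because every clone descends from the same parental cells, the p-values below cover the variation among clones of 1 line and not among lines.

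Cells make cholesterol from acetyl-CoA in a long chain of enzymes: the mevalonate arm builds isoprenoid units, squalene is assembled from them, and the late steps turn the first ring-closed sterol, lanosterol, into cholesterol. SREBP2, encoded by Srebf2, is best known for driving these enzymes, and SREBP1, encoded by Srebf1, for driving fatty acid synthesis and desaturation. Both are held in the endoplasmic reticulum by SCAP and the INSIG proteins while sterols are plentiful, and SCAP carries them to the Golgi for cleavage when sterols run low. The transcript level of an SREBP is therefore not its activity.

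The 6 libraries held between 11937909 and 16189554 counts. Tet1 itself, the targeted gene, had 231 to 365 CPM (the count scaled by library size with TMM factors) in the knockout clones, and the non-targeted clones spanned 966 to 1158 CPM, so the labels and the reads gave the same order. Over 14664 tested genes, edgeR's quasi-likelihood test called 0 at an adjusted p of 0.05 (0% of the genes; 3640 at an unadjusted p under 0.05, 24.8%), while DESeq2 called 1232 of 14235 (8.65%), 5.5% higher and 3.15% lower in the knockout. Knockout replicate 1 set the edgeR count, which was 4404 without it. Of 14 tested pluripotency markers 13 had a negative log2 fold change (median -0.39), beside 49.7% of all tested genes. Both edgeR and DESeq2 called 0 of them, and the groups overlapped in 12. At an unadjusted p under 0.05 in edgeR, 2 were lower (14.3%) and 0 higher, beside 10.8% and 14% of all tested genes. Their list medians were -0.10, -0.40 and -0.87 in knockout replicates 1, 2 and 3 relative to the non-targeted mean. Sox2 is listed at 0 in every clone, and it lies inside another annotated gene of the same strand, where reads were not counted.

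Most of the sterol and lipid genes lay slightly above their non-targeted level in the knockout clones. Of the 30, 24 had a log2 fold change above 0 (knockout minus non-targeted) and 6 below, with a median of 0.20, beside 50.3% of all tested genes above 0, 49.7% below and a median of 0.00. The range was narrow, from -0.45 for Mvk to 0.65 for Sc5d. In 9 of the 30 every knockout clone lay above every non-targeted clone (30%, beside 14.8% of all tested genes), and in 2 every knockout clone lay below (6.67%, beside 14.7%). The edgeR test called 0 members, with 10 higher and 1 lower at an unadjusted p under 0.05 (33.3% and 3.33%, beside 14% and 10.8% of all tested genes). DESeq2 called 4, all higher (13.3%, beside 5.5%): Cyp51, Sc5d, Scd2 and Fads2. That count changed when any clone was left out, as did the DESeq2 count over all genes. With knockout replicate 1, 2 or 3 left out, DESeq2 called 9, 0 and 1 members, beside 27.4%, 2.11% and 1.96% of all genes tested in those fits. With non-targeted replicate 1, 2 or 3 left out, it called 1, 2 and 0, beside 1.44%, 5.45% and 0.977%. The edgeR test also called 9 members once knockout replicate 1 was left out, beside 29.1% of all genes. Without that clone the members' share, 30%, was near that of all genes in both tools when calls in either direction were counted. The shares of all genes in the fits with a clone left out all count both directions and were not split. The 9 members that DESeq2 called without knockout replicate 1 all had a log2 fold change above 0 with all clones, so the 2 shares are not alike in direction.

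**Figure D1:**
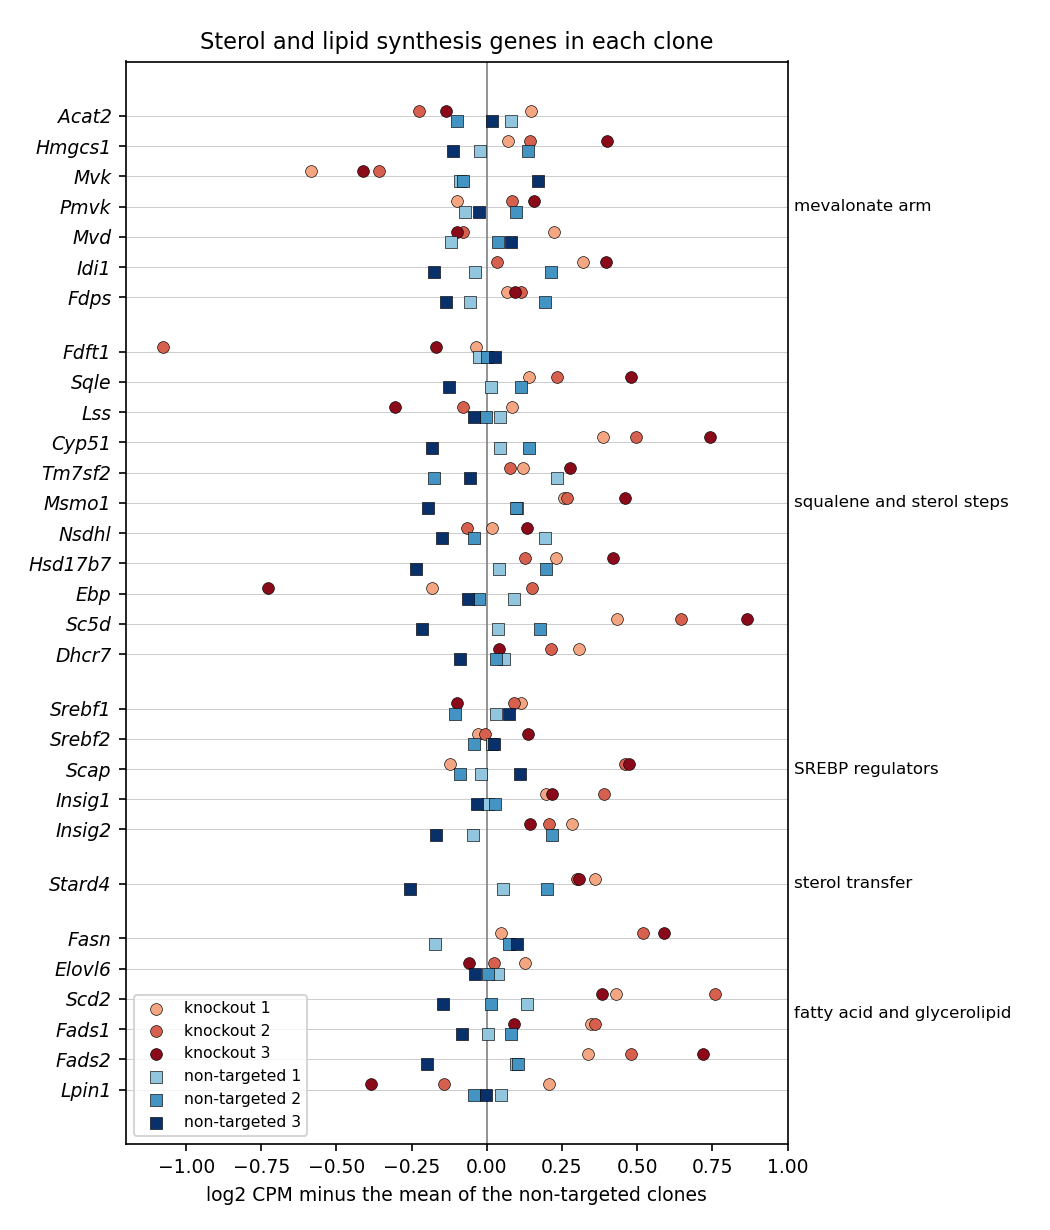
Each row is a gene and each point a clone, as log2 CPM minus the mean of the 3 non-targeted clones on the x axis (circles, knockout; squares, non-targeted). Cyp51, Sc5d, Scd2 and Fads2 have all 3 knockout clones to the right of the non-targeted clones, Mvk has them to the left, and Fdft1 has 1 knockout clone, replicate 2, far below the rest.

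**Figure D2:**
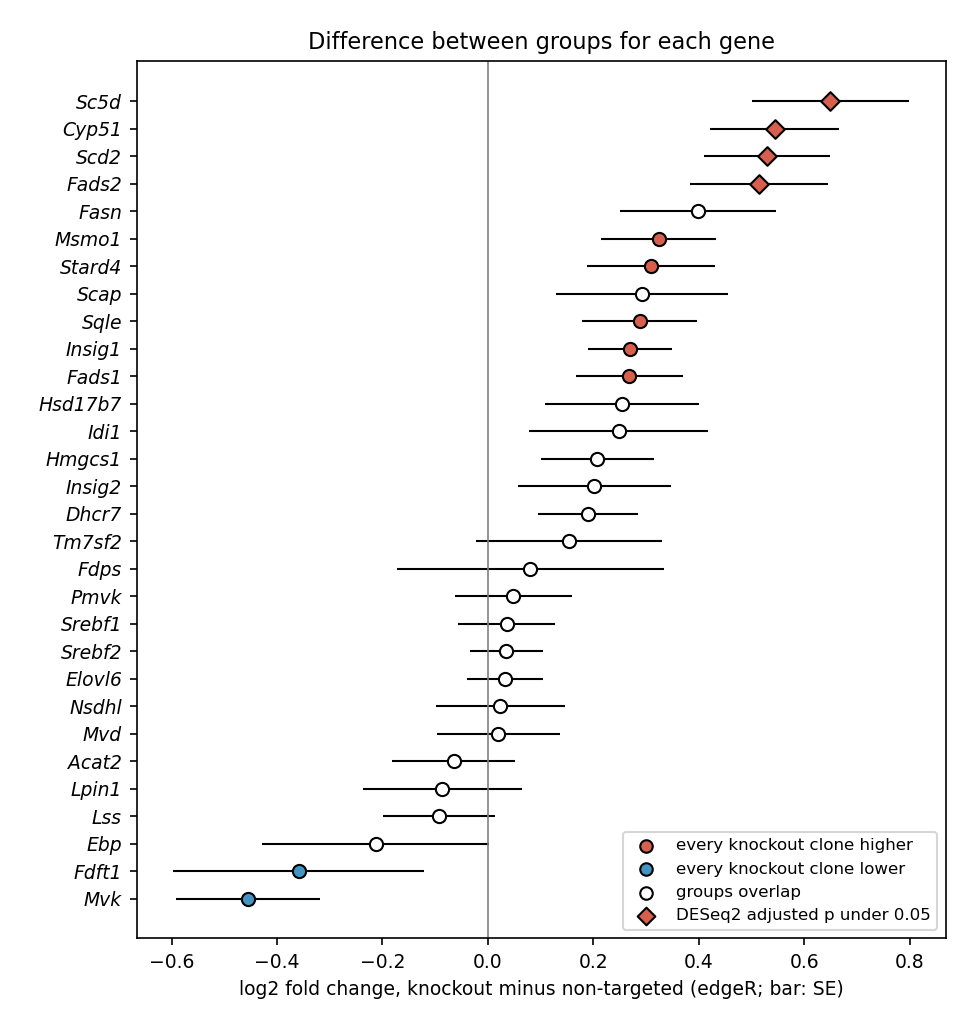
Log2 fold change of each gene from edgeR (x axis), with its SE as a bar, ordered by size. Filled points mark the 9 genes higher and the 2 genes lower in every knockout clone, and diamonds the 4 genes with a DESeq2 adjusted p under 0.05.

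Promoter sequences are shown here because SREBPs act through short promoter elements and usually with the CCAAT-binding factor NF-Y and the GC-box factor Sp1. Those printed are a selection. Cyp51 and Sc5d were called in DESeq2, and Mvk was lower in every knockout clone. Hmgcs1, called by neither tool with all clones, is the only matched member with the sterol element searched below. RefSeq windows (GRCm38.p6, 250 bases before to 50 after a gene's start) were matched for 24 of the 30 members, and those of Sqle, Fdft1, Stard4, Fads1, Scd2 and Fdps were not. Each sequence gives the 250 bases before the start, 5′ to 3′ on the gene's strand. Capitals mark the letters searched on both strands: TCACNCCAC (a form of the sterol regulatory element), CCAAT (NF-Y), GGGCGG (Sp1) and CACGTG (an E-box), which share no overlap in these sequences.
Hmgcs1, chr13:119690101-119690350, plus strand: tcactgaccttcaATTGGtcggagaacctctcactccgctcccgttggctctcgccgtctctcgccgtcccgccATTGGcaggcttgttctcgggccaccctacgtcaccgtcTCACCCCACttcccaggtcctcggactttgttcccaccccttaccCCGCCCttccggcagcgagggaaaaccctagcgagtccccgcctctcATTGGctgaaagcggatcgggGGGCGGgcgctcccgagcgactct
Mvk, chr5:114444019-114444268, plus strand: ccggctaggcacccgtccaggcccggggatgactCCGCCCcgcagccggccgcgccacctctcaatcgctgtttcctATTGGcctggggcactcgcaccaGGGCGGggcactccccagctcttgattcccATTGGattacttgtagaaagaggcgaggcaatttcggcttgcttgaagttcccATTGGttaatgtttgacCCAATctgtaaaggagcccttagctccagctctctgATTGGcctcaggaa
Cyp51, chr5:4104698-4104947, minus strand: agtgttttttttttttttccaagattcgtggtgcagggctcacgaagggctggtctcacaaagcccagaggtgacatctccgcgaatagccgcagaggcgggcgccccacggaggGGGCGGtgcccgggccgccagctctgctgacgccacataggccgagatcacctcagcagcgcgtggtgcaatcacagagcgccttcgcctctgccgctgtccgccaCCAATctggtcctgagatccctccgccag
Sc5d, chr9:42264301-42264550, minus strand: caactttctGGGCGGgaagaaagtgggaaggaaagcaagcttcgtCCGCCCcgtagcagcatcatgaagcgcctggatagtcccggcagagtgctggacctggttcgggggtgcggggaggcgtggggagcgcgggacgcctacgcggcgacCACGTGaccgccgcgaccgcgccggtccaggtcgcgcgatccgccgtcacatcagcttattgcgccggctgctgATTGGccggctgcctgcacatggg

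Among the 24 matched members, 19 had CCAAT in a window of 300 bases (79.2%), beside 42.9% of the 10280 tested genes with a window. GGGCGG stood in 20 (83.3%, beside 69.4%) and CACGTG in 5 (20.8%, beside 11.8%). The strict TCACNCCAC stood only in Hmgcs1 (1 of 24, beside 1.51%), 137 bases before the start. Mvk held CCAAT 5 times in its window, the most of any matched member, Hmgcs1 4 times, and Cyp51 and Sc5d 1 time each. The window of Fads2, called in DESeq2 but not printed, held GGGCGG 1 time and CCAAT, TCACNCCAC and CACGTG 0 times. These matches describe letters in the windows and were not tied to binding in these cells.

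In the mevalonate arm the levels stayed close to those of the non-targeted clones, and 1 enzyme, Mvk, stood lower in all knockout clones. Mvk, mevalonate kinase (chromosome 5, 114444269 to 114460591, GRCm38), was measured at 14.7, 17.2 and 16.6 CPM in the knockout clones, in replicate order here and below, against 20.7, 20.9 and 24.9 CPM in the others. The groups did not overlap, and the log2 fold change was -0.45 ± 0.14 (SE; edgeR adjusted p = 0.128; DESeq2 adjusted p = 0.0626). Mvk is read from a start only 209 bases from that of Mmab, an enzyme of cobalamin metabolism on the opposite strand, which was named for this position. Mmab had 18.5, 13.6 and 11.4 CPM against 13.5, 14.7 and 13.6 CPM (log2 fold change 0.06 ± 0.20). Its groups overlapped, with knockout replicate 1 the highest of all clones and replicate 3 the lowest. The 20 genes nearest to Mvk had median differences of -0.07, 0.00 and -0.06 in the knockout replicates.

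Hmgcs1, the cytosolic HMG-CoA synthase with the sterol element shown above, had 321, 338 and 402 CPM against 300.4, 335 and 282 CPM. Only knockout replicate 3 stood clear of the rest, and the log2 fold change was 0.21 ± 0.11 (edgeR adjusted p = 0.267). Acat2, the thiolase that opens the pathway and has a close copy, Acat3, Pmvk and Mvd, the kinase and decarboxylase after Mvk, and Idi1, the isopentenyl diphosphate isomerase, had log2 fold changes of -0.06, 0.05, 0.02 and 0.25, and their groups overlapped. Fdps, which makes farnesyl diphosphate, could not be followed: 79.6% of its exon bases lie under another annotated gene of the same strand, Gm43738 or Gm22935, reads there were not counted, and only 20 to 31 counts were left in a clone.

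The steps from squalene to cholesterol held 2 of the 4 members that rose in DESeq2. Cyp51, the lanosterol 14-alpha-demethylase (chromosome 5, 4081145 to 4104746), had 155, 167 and 198 CPM against 122, 130 and 104 CPM. Sc5d, the sterol C5-desaturase (chromosome 9, 42254177 to 42264300), had 41.9, 48.5 and 56.4 CPM against 31.8, 35.1 and 26.7 CPM. For both enzymes the lowest knockout clone, replicate 1, stood above the highest non-targeted clone, replicate 2. The log2 fold change was 0.54 ± 0.12 for Cyp51, a 1.46-fold difference (adjusted p = 0.0112 in DESeq2 and 0.109 in edgeR), and 0.65 ± 0.15 for Sc5d, a 1.57-fold difference (adjusted p = 0.0103 in DESeq2 and 0.11 in edgeR). Leaving out knockout replicate 2 or 3, or non-targeted replicate 1 or 3, ended both DESeq2 calls (adjusted p up to 0.168 and 0.165), while the log2 fold changes stayed between 0.44 and 0.61 for Cyp51 and between 0.53 and 0.75 for Sc5d when any clone was left out.

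Msmo1, the sterol C4-methyl oxidase, downstream of Cyp51, had 97.7, 98.5 and 112 CPM against 87.6, 87.5 and 71.4 CPM (log2 fold change 0.32 ± 0.11; DESeq2 adjusted p = 0.126). Sqle, the squalene epoxidase, had 175, 187 and 222 CPM against 161, 172 and 146 CPM (0.29 ± 0.11; DESeq2 adjusted p = 0.183). Neither passed a test with all 6 clones, although in both the knockout clones stood above all non-targeted clones. Knockout replicate 1 lay closest to the non-targeted range in each, 175 against 172 CPM for Sqle, and without it edgeR gave adjusted p = 0.0449 for Msmo1 and 0.0303 for Sqle, in a fit that called 29.1% of all genes. Hsd17b7 and Dhcr7, reductases of the late steps, had log2 fold changes of 0.25 and 0.19 with overlapping groups, as did Tm7sf2, another sterol reductase (0.15), for which 12.1% of the exon bases lie under Vps51. Lss, which closes the sterol rings, Nsdhl, a dehydrogenase of demethylation, and Ebp, the sterol isomerase, had -0.09, 0.02 and -0.21. Ebp had 20.2, 25.4 and 13.8 CPM in the knockout clones, both above and below the non-targeted range of 21.9 to 24.4 CPM.

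**Figure D3:**
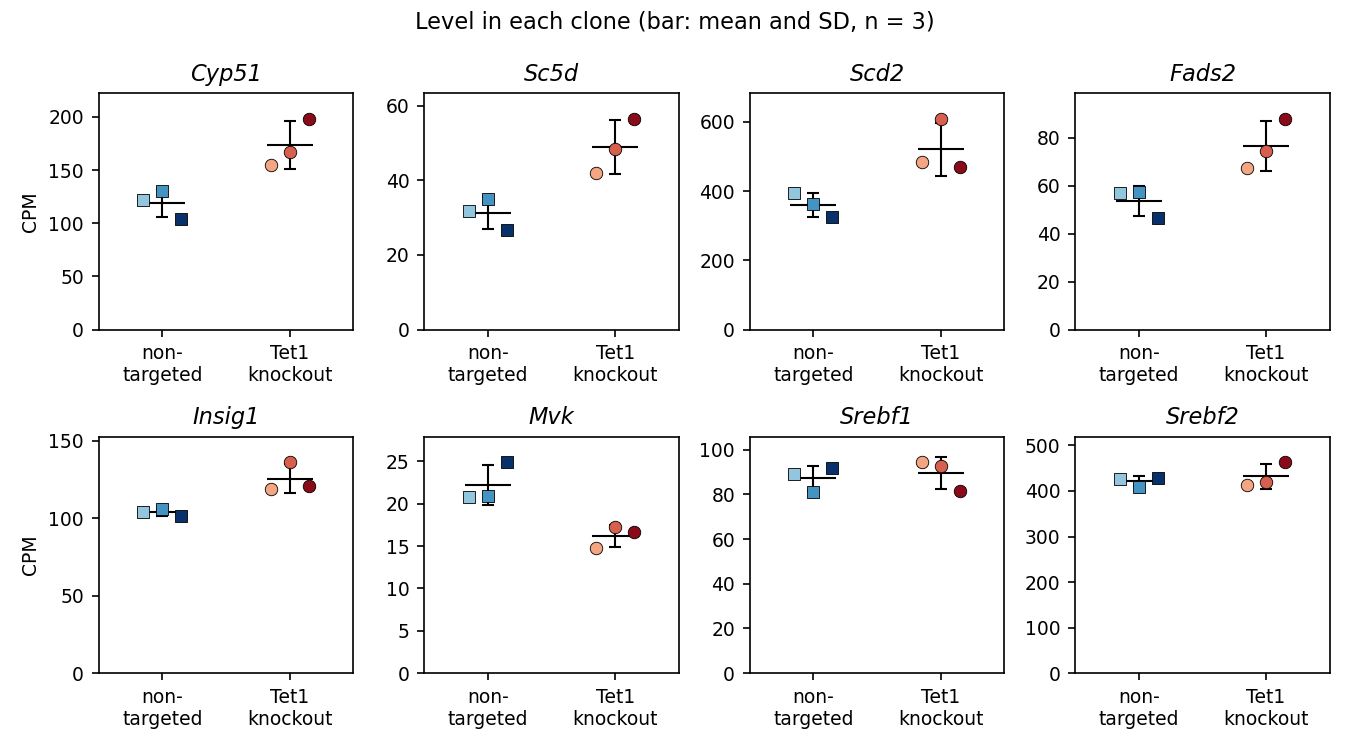
CPM in each clone for 8 genes (y axes from 0; squares, non-targeted; circles, knockout; darker shades, higher replicate number; bars, mean and SD of 3 clones). Cyp51, Sc5d, Scd2, Fads2 and Insig1 have knockout clones above the non-targeted clones, Mvk below, and Srebf1 and Srebf2 overlap.

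Fdft1, the squalene synthase at the branch into sterols (chromosome 14, 63145153 to 63177793), was lowest by far in 1 clone. It had 113, 55.2 and 103 CPM against 114, 116 and 119 CPM. The groups did not overlap, but knockout replicate 1 lay within 1 CPM of the non-targeted range and replicate 2 far under it. The log2 fold change was -0.36 ± 0.24 (edgeR adjusted p = 0.370; DESeq2 adjusted p = 0.366) and -0.09 without knockout replicate 2. The 20 nearest genes with a mean log2 CPM above 4, between 60265205 and 65817822, were low in the same clone. Their median was -0.98 in knockout replicate 2, beside -1.08 for Fdft1, and -0.01 and -0.18 in replicates 1 and 3. Of the 20, 19 lay below the non-targeted range in replicate 2, 12 in replicate 3 and 6 in replicate 1. The low Fdft1 of that clone thus stood in a stretch of chromosome 14 in which nearly every measured neighbour was low, and the part of that stretch in the Fdft1 value was not tested. Around the other 29 members, with 11 to 20 such neighbours each, the medians lay between -0.34, around Ebp in knockout replicate 3, and 0.20, around Fasn in knockout replicate 2.

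**Figure D4:**
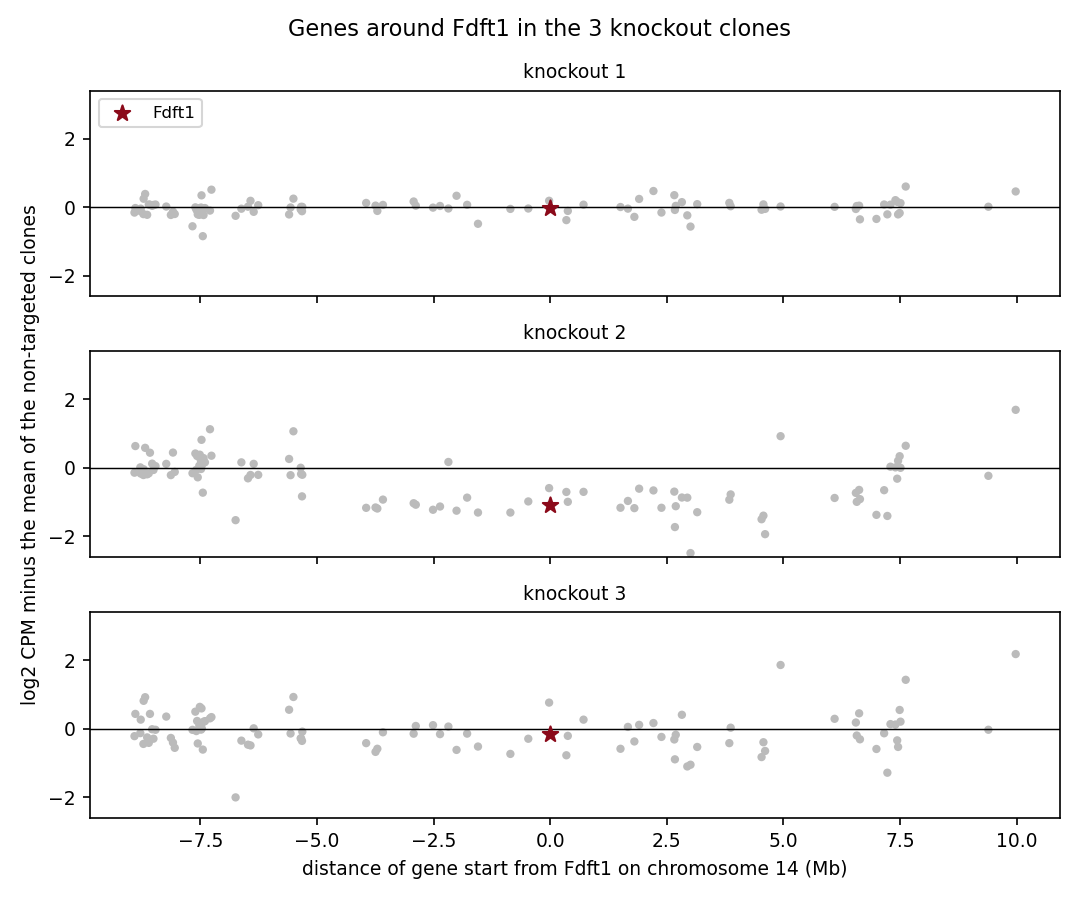
Genes within 10 Mb of Fdft1 in the 3 knockout clones: distance of each gene's start from that of Fdft1 in Mb (x axis) against log2 CPM minus the non-targeted mean (y axis). In knockout replicate 2 the star of Fdft1 (-1.08) sits among neighbours with a median of -0.98. In replicate 1 both lie near 0 (-0.04 and -0.01), and in replicate 3 they lie slightly below it (-0.17 and -0.18).

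Neither SREBP gene differed between the groups beyond the spread of the clones. Srebf1 had 94.3, 92.7 and 81.3 CPM against 88.9, 81.0 and 91.7 CPM (log2 fold change 0.04 ± 0.09; edgeR adjusted p = 0.834). Srebf2 had 413, 419 and 463 CPM against 427, 410 and 428 CPM (0.03 ± 0.07; edgeR adjusted p = 0.781). The groups overlapped in both genes, and the sign turned for Srebf1 without knockout replicate 1 or non-targeted replicate 2 and for Srebf2 without knockout replicate 3. Insig1, the INSIG gene that is itself a strong SREBP target, had 119, 136 and 121 CPM against 104, 106 and 102 CPM, with no overlap and little spread among the non-targeted clones (0.27 ± 0.08; edgeR adjusted p = 0.127; DESeq2 adjusted p = 0.0989). Insig2, the isoform less tied to SREBP activity, had 19.8, 18.8 and 18.0 CPM against 15.7, 18.9 and 14.5 CPM (0.20 ± 0.14; edgeR adjusted p = 0.407). Scap, the escort of both SREBPs, was split within the knockout: 93.8 and 94.8 CPM in replicates 2 and 3 stood above the non-targeted clones (67.3, 64.1 and 73.7 CPM), and 62.6 CPM in replicate 1 stood below them (0.29 ± 0.16; edgeR adjusted p = 0.295). Without knockout replicate 1 Scap and Insig1 passed edgeR (adjusted p = 0.00805 and 0.0272), as did 29.1% of all genes.

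Stard4, a soluble carrier of sterols between membranes, had 75.3, 72.2 and 72.6 CPM against 60.9, 67.4 and 49.2 CPM. The knockout clones lay close together, with an SD of 1.66 beside 9.24 CPM, and above all non-targeted clones (log2 fold change 0.31 ± 0.12; edgeR adjusted p = 0.175; DESeq2 adjusted p = 0.185).

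In the fatty acid arm 2 of the 6 genes, Scd2 and Fads2, rose in DESeq2 and 0 fell, beside 5.5% and 3.15% of all genes. Scd2, a stearoyl-CoA desaturase (chromosome 19, 44293676 to 44306864), had 485, 609 and 469.6 CPM against 394, 363 and 325 CPM (log2 fold change 0.53 ± 0.12, 1.44-fold; adjusted p = 0.0113 in DESeq2 and 0.109 in edgeR). Fads2, the delta-6 desaturase (chromosome 19, 10064164 to 10101503), had 67.5, 74.5 and 88.0 CPM against 57.1, 57.4 and 46.6 CPM (0.51 ± 0.13, 1.43-fold; adjusted p = 0.0278 in DESeq2 and 0.116 in edgeR). The groups were apart in both genes, with knockout replicate 2 highest for Scd2 and replicate 3 highest for Fads2. Scd2 lost its DESeq2 call when knockout replicate 2 or non-targeted replicate 2 or 3 was left out (adjusted p up to 0.178), and Fads2 when any clone but knockout replicate 1 was left out (up to 0.257).

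Fads1, the delta-5 desaturase that starts 81.4 kb from Fads2 on the opposite strand, had 81.7, 82.5 and 68.4 CPM against 64.4, 67.9 and 60.6 CPM, so that knockout replicate 3 cleared the highest non-targeted clone by under 1 CPM (0.27 ± 0.10; DESeq2 adjusted p = 0.189). Fasn, the fatty acid synthase, had 870.0, 1207 and 1269 CPM against 747, 886 and 904 CPM. Knockout replicate 1 lay inside the non-targeted range while the other knockout clones stood above it (0.40 ± 0.15; edgeR adjusted p = 0.163, and 0.00401 without knockout replicate 1, where 29.1% of all genes passed). Elovl6, which elongates the products of Fasn, and Lpin1, a phosphatidate phosphatase, had log2 fold changes of 0.03 ± 0.07 and -0.09 ± 0.15 with overlapping groups, and Lpin1 ranged from 34.6 CPM in knockout replicate 3 to 52.1 CPM in replicate 1.

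Per kilobase of merged exon (GENCODE M21), the highest mean levels in the non-targeted clones were 77.2 ± 7.85 CPM for Fasn, 66.6 ± 5.88 for Hmgcs1, 66.0 ± 6.34 for Scd2 and 58.7 ± 1.45 for Srebf2 (SD, n = 3). Hmgcs1 and Scd2 differed by less than their spread there. In the knockout the means were 95.3 ± 14.0 for Scd2, 77.0 ± 9.39 for Hmgcs1 and 102 ± 19.6 for Fasn, and these spreads overlapped. In knockout replicate 3 Hmgcs1 stood slightly above Scd2. The lowest levels other than Fdps were 1.89 for Tm7sf2, 3.72 for Idi1 and 4.67 for Lpin1 in the non-targeted clones. Counts included reads in introns, so these values are approximate as transcript levels.

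Several sterol enzymes shared an order of the clones, a pattern noticed after the values were seen. In 8 of the 30 members knockout replicate 3 was the highest and non-targeted replicate 3 the lowest of the 6 clones (26.7%, beside 7.34% of all tested genes): Hmgcs1, Idi1, Sqle, Cyp51, Msmo1, Hsd17b7, Sc5d and Fads2. Of these 8, 7 are among the 18 enzymes of the mevalonate and sterol steps. Non-targeted replicate 3 was the lowest clone in 16 of the 30 members, beside 2423 of the 14664 tested genes (16.5%). Knockout replicate 3 was the highest in 13 of the 30, beside 3981 of the 14664 (27.1%). The members thus differed between clones of the same group as well as between groups. Over the squalene and sterol steps the median log2 level, with the non-targeted mean at 0, was 0.14, 0.15 and 0.28 in the knockout clones against 0.05, 0.03 and -0.12. Over the fatty acid and glycerolipid genes it was 0.27, 0.42 and 0.24 against 0.04, 0.04 and -0.06. In the mevalonate arm the medians of 0.07, 0.03 and 0.09 overlapped those of the non-targeted clones (-0.06, 0.10 and -0.03).

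**Figure D5:**
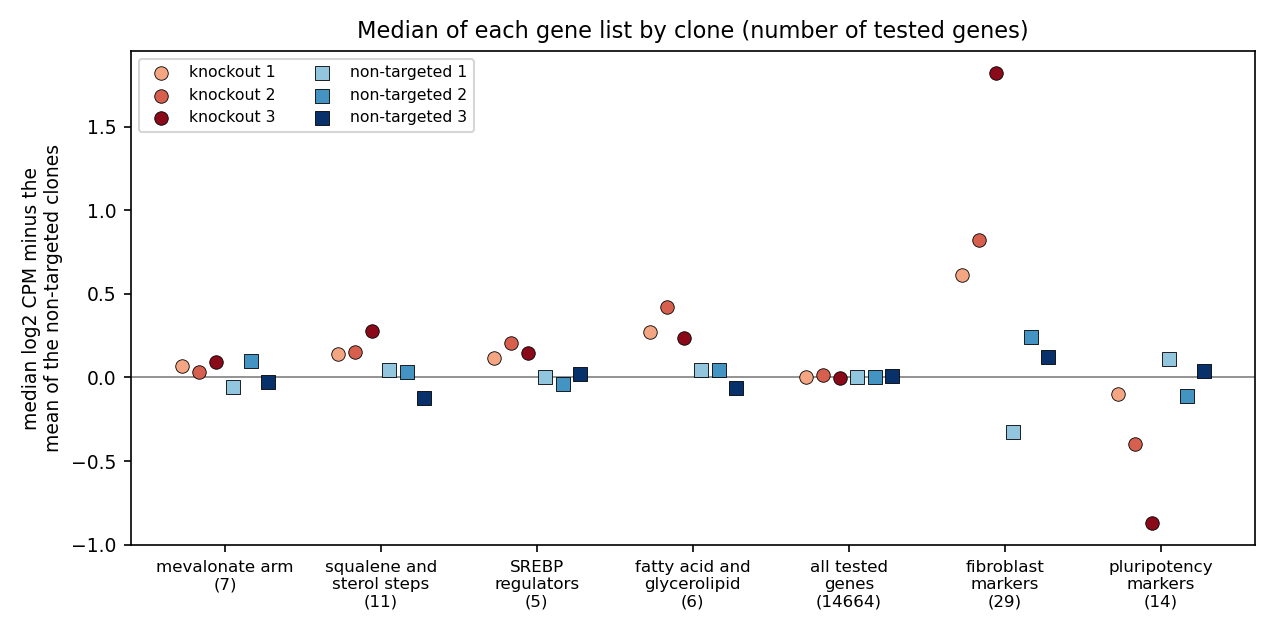
Median log2 CPM relative to the non-targeted mean for each gene list (x axis, with the number of tested genes) in each clone. The member lists reach at most 0.42 in a knockout clone, the fibroblast markers reach 1.82 in knockout replicate 3, and the pluripotency markers -0.87 there.

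Markers of fibroblasts, the feeder cells, were higher in the knockout clones as well. Of 29 tested markers 15 rose in DESeq2 and 0 fell, beside 5.5% and 3.15% of all genes, while edgeR called 0. At an unadjusted p under 0.05 edgeR had 23 higher (79.3%) and 0 lower, beside 14% and 10.8% of all genes. The log2 fold change was above 0 for 27, beside 50.3% of all genes (median 1.20). Their medians by clone were 0.61, 0.82 and 1.82 in the knockout against -0.33, 0.24 and 0.12. None of the 31 listed markers was at 0 in all clones, and their summed level overlapped, at 2039.7 to 2658 CPM in the knockout clones beside 2050.4 to 2424 CPM. Knockout replicate 3 was the highest of the 6 clones for 26 of the 29 tested markers, beside 27.1% of all genes and 13 of the 30 members. Among the 9 members higher in every knockout clone, it was the highest for Cyp51, Sc5d, Fads2, Sqle and Msmo1. For Scd2, Insig1 and Fads1 knockout replicate 2 was the highest, and for Stard4 knockout replicate 1. Of 13 primitive endoderm markers tested in DESeq2, 5 rose and 0 fell, beside 5.5% and 3.15% of all genes. Of 12 tested in edgeR 9 lay above 0, beside 50.3% of all genes, and 0 were called. At an unadjusted p under 0.05, 6 were higher (50%) and 0 lower, beside 14% and 10.8% of all genes. Their medians by clone were 0.58, 0.65 and 1.19 in the knockout against 0.09, -0.04 and -0.11. Their summed level was 730.5 to 1002 CPM beside 731 to 783 CPM, and Ttr was listed at 0. Pdgfra and Sparc are on both the fibroblast and the endoderm list. Pdgfra rose in DESeq2 and is counted in each, so the lists are not independent. The part of other cell types in the differences of the sterol and lipid genes was not tested. In bulk RNA a change in the make-up of the cells and a change in RNA per cell cannot be told apart.

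Other genes of sterol and lipid metabolism, listed by role, lay mostly above their non-targeted level too. Of 92 tested genes 69 lay above 0 (75.0%, beside 50.3% of all genes). DESeq2 called 9 higher and 1 lower, beside 5.5% and 3.15% of all genes, and the 9 were 9.78% of those tested. The edgeR test called 0. At an unadjusted p under 0.05 it had 24 higher and 8 lower (26.1% and 8.7%, beside 14% and 10.8% of all genes). Among other fatty acid and glycerolipid enzymes 4 of 33 rose in DESeq2 and 0 fell, beside the same 5.5% and 3.15%. Scd1, the desaturase whose start lies 114 kb from that of Scd2, had 105, 123 and 102 CPM against 67.6, 72.8 and 54.8 CPM, the groups well apart (log2 fold change 0.76 ± 0.13; adjusted p = 0.00028 in DESeq2 and 0.106 in edgeR). Agpat3, an acyltransferase of phospholipid synthesis, and Elovl4, an elongase of very long chains, had 0.79 ± 0.15 and 1.24 ± 0.27 (DESeq2 adjusted p = 0.00127 and 0.00319). Scd1 and Scd2 were thus both higher in every knockout clone. Scd1 kept its DESeq2 call whichever clone was left out (adjusted p up to 0.0158), Agpat3 lost it without non-targeted replicate 3 (0.0667), and Elovl4 with knockout replicate 2 or 3 or non-targeted replicate 1 or 3 left out (up to 0.101).

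Of 14 tested further enzymes and helpers of sterol synthesis, 12 lay above 0, as did 15 of 19 genes of SREBP processing and turnover, beside 50.3% of all genes. Among 18 genes of sterol uptake and transport 13 lay above 0, 2 rose in DESeq2 and 0 fell, beside 5.5% and 3.15% of all genes. Lrp8, a lipoprotein receptor, was one of those that rose, with 18.3, 29.9 and 32.2 CPM against 12.2, 19.4 and 15.3 CPM (0.78 ± 0.25; DESeq2 adjusted p = 0.0494). Knockout replicate 1 lay inside the non-targeted range for Lrp8, and the call was lost when knockout replicate 2 or 3 or non-targeted replicate 1 or 3 was left out (DESeq2 adjusted p up to 0.307).

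The list of liver X receptors (LXRs), which are activated by oxysterols, and their targets gave 1 rise and 1 fall in DESeq2 among 8 tested genes, beside 5.5% and 3.15% of all genes. Nr1h2, which encodes LXR-beta, had 71.7, 68.9 and 66.8 CPM against 93.2, 83.8 and 108 CPM, with no overlap (-0.46 ± 0.11; adjusted p = 0.0189 in DESeq2 and 0.11 in edgeR). Its heterodimer partner Rxra had 29.5, 35.7 and 36.8 CPM against 20.3, 21.3 and 24.7 CPM (0.62 ± 0.14; adjusted p = 0.00886 in DESeq2 and 0.109 in edgeR). Both calls were lost when knockout replicate 2 or 3 or non-targeted replicate 1 was left out, that of Nr1h2 also without non-targeted replicate 3 and that of Rxra also without non-targeted replicate 2 (DESeq2 adjusted p up to 0.208 and 0.131). The receptor and its partner thus stood on opposite sides, each in all 3 knockout clones. The 20 genes nearest to Nr1h2 had medians of -0.10, -0.24 and -0.29 in the knockout replicates, beside -0.40, -0.45 and -0.50 for Nr1h2 itself. The edgeR adjusted p of the called genes in these 5 lists was at least 0.106 with all 6 clones.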

How the data were processed

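RNA-seq of 3 Tet1 knockout and 3 non-targeted clones was analysed from 1 table of whole-number counts of reads per gene. The authors deposited these counts without normalization. Per the file headers, featureCounts 1.6.2 counted reads in the reverse-stranded mode against GENCODE M15 of GRCm38.p5, over gene bodies with introns included, and no option to count multi-mapping or multi-overlapping reads was set. The submitters' processing notes name mm10, the aligner HISAT2 (2.1.0), DESeq2 (1.18.1) and another featureCounts version (1.5.3). Genes that overlap another gene of the same strand or have close copies therefore lose reads.

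Genes were kept with edgeR's filterByExpr (minimum count 10, minimum total 15), libraries were scaled with TMM, and the groups were compared over all 14664 kept genes with edgeR's quasi-likelihood test, group as the only term, with Benjamini-Hochberg adjustment at 0.05. The SE is the size of the fold change over the square root of F. DESeq2, limma voom, RLE size factors, no filter, a replicate block and leaving out each clone were alternatives. DESeq2 with each clone left out was added after the data were seen, as were the neighbour medians (10 tested genes on each side with a mean log2 CPM above 4). Differences by clone are log2 CPM with 0.5 counts added. The edgeR step was tested on simulated data. Versions were edgeR 4.0.16, DESeq2 1.42.0 and limma 3.58.1 under R 4.3.3.

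The members and the lists of other pathway genes were chosen with earlier results of these data known. By the rule for named genes, members past a threshold or with groups apart and the 5 regulators are given in full, and from each other list up to 3 called genes with the smallest p. Of 104 other pathway genes listed, 102 were in the table. Of the genes this rule takes, 3 are not reported.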

Additional observations from a re-analysis of the deposited data

How the results depend on the processing

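The median log2 fold change over the members, 0.20 with all clones, was between 0.19 and 0.20 with DESeq2, limma voom, RLE size factors, no filter on low counts and the replicate block, and between 0.13 and 0.22 when a clone was left out. The count of members called by edgeR, 0, became 4 in DESeq2 and ranged from 0 to 9 with a clone left out. The edgeR count over all genes, 0, became 1232 in DESeq2, 1 in limma voom, 159 with no filter and 3 with the replicate block, and ranged from 0 to 4404 with a clone left out. In DESeq2, which called 1232 genes and 4 members with all clones, the count over all genes was 4106, 306 and 265 with knockout replicate 1, 2 or 3 left out and 183, 763 and 128 with non-targeted replicate 1, 2 or 3 left out, and the members called were 9, 0 and 1 and 1, 2 and 0.

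Same-numbered clones share only a number. Their deviations from the group means correlated at 0.43, 0.10 and -0.02, and those of differently numbered pairs at -0.45 to 0.44. In the fit with the replicate block 0 members passed, as without it. No member changed sign under the 5 alternatives that kept all 6 clones. With a clone left out the sign turned within these ranges of the log2 fold change: -0.19 to 0.018 for Acat2, -0.0084 to 0.11 for Pmvk, -0.098 to 0.078 for Mvd, -0.19 to 0.0042 for Lss, -0.053 to 0.12 for Nsdhl, -0.020 to 0.10 for Srebf1, -0.018 to 0.064 for Srebf2, -0.022 to 0.076 for Elovl6, -0.26 to 0.044 for Lpin1 and -0.16 to 0.21 for Mmab. The causes were not tested. Depth limits Fdps, with at most 31 counts in a clone.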
